A study of Mus musculus with 11 samples.

Results

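Collagen genes were examined in RNA of sorted cells that the authors name mPFC CRF1+ neurons. The name stands for neurons of the medial prefrontal cortex (mPFC) that express the receptor CRF1 for corticotropin releasing factor. Transcripts of other cell types were also present, as described below. Members were all genes whose mouse symbol is Col, a type number, the letter a and a chain number, and 44 of the 53465 genes in the count files met this rule. They were split by the structure that their protein forms into 11 fibrillar genes (types I, II, III, V, XI, XXIV and XXVII), 6 basement membrane genes (type IV), 6 beaded filament genes (type VI) and 21 other genes. The class of a gene is set by its type number alone and uses no expression value.

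RNA came from GFP-positive cells sorted from single adult male CRF1:GFP mice, a reporter line in which GFP marks cells that express Crhr1, the gene for CRF1. Each library is 1 mouse, and the groups are 6 naïve mice, which breathed air and received pyrazole, and 5 withdrawn mice, which were exposed intermittently to ethanol vapor for 5 to 6 weeks, were injected with ethanol and pyrazole before going into the chambers, and were taken after 5 to 8 days of abstinence. Pyrazole, an inhibitor of alcohol dehydrogenase, was thus given to both groups. Another label of 3 withdrawn mice (numbers 3, 4 and 5) names them as controls, and the deposited design description swaps the group sizes. A fit was therefore also run with these 3 mice left out, which keeps only withdrawn mice 1 and 2. The gene counts of a library summed to between 7351567 and 22244869, and 3 counts, taken as the floor, corresponded to 0.135 to 0.408 CPM, which are counts scaled to a common library size. The floor covers counting error only, because the reads come from amplified cDNA of very little RNA.

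Collagens are trimers of alpha chains wound into a triple helix. Fibrillar collagens assemble into the banded fibrils of connective tissue, type IV collagen forms the network of basement membranes, and type VI collagen forms beaded filaments that link cells to the matrix around them. In the brain, the vascular basement membrane holds type IV collagen, fibroblasts of the meninges and of larger vessels make type I and type III collagen, and a few collagens such as types XIX and XXV are known from neurons. Each chain is hydroxylated and glycosylated, folded with the help of chaperones, exported, trimmed by proteinases and crosslinked, and cells bind the product through integrins and discoidin domain receptors.

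Of the 44 collagen genes, 38 had enough counts for the test and 6 did not. The 6 were Col2a1, Col4a6, Col6a6, Col9a1, Col9a3 and Col10a1, each with at most 145 counts in any mouse. Every one of the 44 had at least 1 count in some mouse, and 16 had a count in every mouse. The number of collagen genes with no count was 27 in naïve mouse 5 and 0 to 6 in the other 10 mice, and naïve mouse 5 also had the fewest genes with a count (15585, against 22551 to 31830 in the others).

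No collagen gene met the thresholds for a call in edgeR's quasi-likelihood test (adjusted p of at most 0.05 over all 17093 genes tested and a log2 fold change beyond 0.6), and of all genes tested 0.00585% did. An unadjusted p under 0.05 was found for 11 of the 38 collagen genes with a higher level in withdrawn mice and for 0 with a lower level, where the same counts over all genes tested were 5.00% higher and 2.22% lower. At any p, 32 of the 38 had a higher fitted level in withdrawn mice, against 51.8% of all genes. The median log2 fold change (withdrawn over naïve) was 0.95 over the collagen genes and 0.02 over all genes tested. DESeq2, the test that the study itself used with these thresholds, was run here as an alternative. It called 6 of the 42 collagen genes to which it gave an adjusted p, all of them higher in withdrawn mice. These were Col1a1, Col6a2, Col8a1, Col8a2, Col12a1 and Col16a1. Of all genes with an adjusted p, DESeq2 called 1.57% as higher and 0.0915% as lower.

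The 11 genes came from 3 of the classes, with 3 of 10 fibrillar genes, 2 of 5 beaded filament genes, 6 of 18 other genes and 0 of 5 basement membrane genes. Withdrawn mouse 2 differed from the other withdrawn mice in most of them. In 8 of the 11 genes its CPM was not above the highest naïve mouse, and in 8 of the 11 all of the other 4 withdrawn mice exceeded the highest naïve mouse. When withdrawn mouse 2 was left out, edgeR called 4 collagen genes, Col1a1 (adjusted p = 0.0203), Col6a2 (adjusted p = 0.00231), Col8a2 (adjusted p = 0.0171) and Col12a1 (adjusted p = 0.0385), beside 1.06% of all genes tested. Leaving out any other single mouse gave 0 calls. Without the filter on low counts edgeR called 5 collagen genes beside 0.325% of all genes tested, and with at least 10 counts in every mouse it called 1 beside 0.273%. Without withdrawn mouse 4, 7 collagen genes had an unadjusted p under 0.05 (5.08% of all genes tested), and without the 3 mice with conflicting labels 6 did (6.27%).

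**Figure D1:**
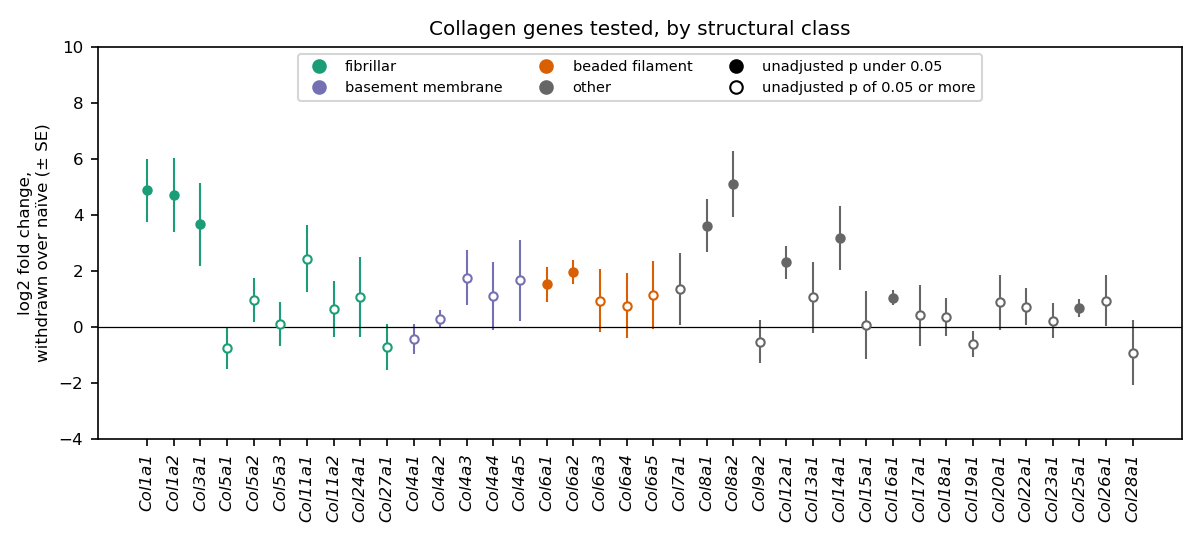
Log2 fold change (withdrawn over naïve, vertical axis) of each of the 38 collagen genes tested, ordered by class, with bars of 1 standard error (SE) from edgeR and filled points for an unadjusted p under 0.05. All 11 filled points lie above 0, from 0.68 for Col25a1 to 5.10 for Col8a2, and none of the 5 basement membrane genes is filled.

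Transcripts of fibroblasts stood beside these differences. A list of 12 fibroblast marker genes, none of them a collagen gene, summed to 11.3 to 91.6 CPM in naïve mice. In withdrawn mice 1 to 5 the sums were 2035, 57.1, 1172, 2041 and 566 CPM, so that mice 1, 3, 4 and 5 were above every naïve mouse and mouse 2 was within the naïve range. Of the 12 genes 8 were tested, 7 of them were higher in withdrawn mice, and 6 had an unadjusted p under 0.05, with a median log2 fold change of 3.75 over the 8 and a smallest adjusted p of 0.0883. Mgp, which encodes matrix Gla protein, had a median of 27.8 CPM in naïve mice (2.17 to 65.8) and 1255, 43.4, 630, 1130 and 323 CPM in withdrawn mice 1 to 5. Slc47a1, a transporter gene of meningeal fibroblasts, had at most 9.00 CPM in naïve mice and 312, 0.112, 167, 318 and 108 CPM in withdrawn mice. Lum, Dpt, Aldh1a2 and Igf2 did not pass the filter, and in withdrawn mouse 2 the markers Islr, Ogn, Fmod, Dpt, Aldh1a2 and Igf2 were at 0. In bulk RNA, fewer cells of a type and less RNA per cell cannot be told apart.

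The summed CPM of the astrocyte and microglia lists split the withdrawn mice in the same way, though the astrocyte split rests on 2 genes. The 10 astrocyte genes summed to 117 to 320 CPM in naïve mice and to 786, 87.6, 587, 872 and 369 CPM in withdrawn mice 1 to 5. Mice 1, 3, 4 and 5 were thus above every naïve mouse and mouse 2 below all of them. Of 9 astrocyte genes tested, 3 were higher and 1 lower at an unadjusted p under 0.05, with a median log2 fold change of -0.13 over the 9. The gap junction genes Gjb6 and Gja1 were among the 3, and Gjb6 had at most 17.4 CPM in naïve mice and 328, 0, 184, 327 and 92.7 CPM in withdrawn mice 1 to 5. Gja1 had at most 31.9 CPM in naïve mice and 309, 6.38, 217, 273 and 129 CPM in withdrawn mice. The split of the astrocyte sum rests on these 2 genes and is not one of the list as a whole. At any p, 4 of the 9 astrocyte genes had a higher and 5 a lower fitted level in withdrawn mice. The 10 microglia genes were far scarcer, with sums of 15.3 to 26.3 CPM in naïve mice and of 43.5, 12.5, 40.5, 46.6 and 31.6 CPM in withdrawn mice, again with mouse 2 below and the other 4 above all naïve mice. Among the 5 microglia genes tested, 1 had an unadjusted p under 0.05, Tmem119, with at most 1.69 CPM in naïve mice and 7.78, 0, 6.87, 14.4 and 7.92 CPM in withdrawn mice. The part of fibroblast, astrocyte or microglia RNA in the collagen values was not tested.

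Vessel and oligodendrocyte lists did not divide the mice in this way. The 10 endothelial genes summed to 9.96 to 967 CPM in naïve and 146 to 1043 CPM in withdrawn mice, with a median log2 fold change of -0.52 over 10 tested and 0 with an unadjusted p under 0.05. The 10 mural cell genes (pericytes and smooth muscle) summed to 0.813 to 173 CPM and 14.1 to 256 CPM, and 1 of 7 tested, Pdgfrb, had an unadjusted p under 0.05. In the oligodendrocyte list, which summed to 135 to 276 CPM in naïve and 109 to 267 CPM in withdrawn mice, 1 of 7 genes tested had an unadjusted p under 0.05. This was the tight junction gene Cldn11, with at most 2.10 CPM in naïve mice and 48.0, 0, 16.1, 27.9 and 5.02 CPM in withdrawn mice 1 to 5, the split of the fibroblast list. The 4 tested genes of oligodendrocyte precursors had 0 of that kind, in a list that summed to at most 18.6 CPM in naïve and 41.9 CPM in withdrawn mice.

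Glutamatergic markers were high in all libraries, and GABAergic markers varied widely. The 8 glutamatergic genes, among them Slc17a7, summed to 2966 to 4497 CPM in naïve and 1945 to 4215 CPM in withdrawn mice, with a median log2 fold change of -0.07 and 0 genes with an unadjusted p under 0.05. The 8 GABAergic genes summed to 76.3 to 935 CPM in naïve and 30.4 to 732 CPM in withdrawn mice, with under 100 CPM in naïve mice 4 and 5 and in withdrawn mouse 3, and 1 of them, Sst, had an unadjusted p under 0.05, with a lower fitted level in withdrawn mice. The groups overlapped for Sst, which had 699, 473, 23.3, 0.175, 0.0677 and 289 CPM in naïve mice 1 to 6. Withdrawn mice 1 to 5 had 0, 0, 0, 32.6 and 0.0707 CPM of it. Reads outside annotated exons made up 5.77% of those counted in naïve mouse 5, 39.6% in withdrawn mouse 2 and 48.1% in withdrawn mouse 4, with the other 8 mice between 13.3% and 31.5%.

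**Figure D2:**
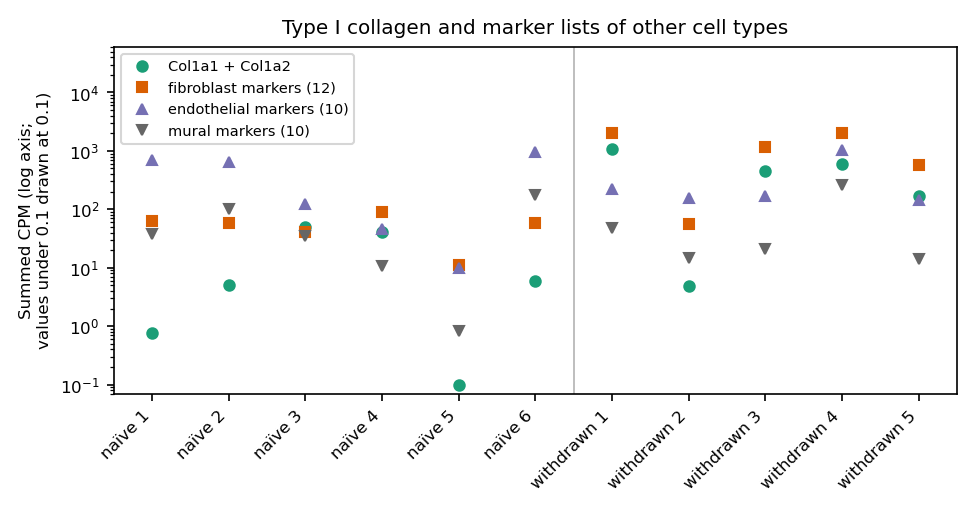
Summed CPM (log axis) of Col1a1 and Col1a2 and of the fibroblast, endothelial and mural marker lists in each of the 11 mice. Type I collagen and the fibroblast list are both high in withdrawn mice 1, 3, 4 and 5, and in withdrawn mouse 2 the fibroblast sum of 57.1 CPM is within the range of the naïve mice.

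Upstream sequence was available for part of the set. RefSeq entries on GRCm38.p6 matched 35 of the 44 collagen genes, with 38 start sites. Among genes with an unadjusted p under 0.05, windows of 250 bases before the start with almost no annotated exon were found for Col8a1, Col8a2, Col3a1, Col25a1 and 1 of the 2 starts of Col6a2. They are shown for the chains of type VIII collagen, to set 2 chains of 1 type side by side, and for Col3a1 as a fibrillar gene. Capitals mark the GC box (GGGCGG, or CCGCCC on the other strand) and the TATA motif (TATAAA, or TTTATA), and the CCAAT motif (CCAAT, or ATTGG) was searched as well, with both strands read and overlapping matches counted.
Col8a1, chr16:57754738-57754987, minus strand: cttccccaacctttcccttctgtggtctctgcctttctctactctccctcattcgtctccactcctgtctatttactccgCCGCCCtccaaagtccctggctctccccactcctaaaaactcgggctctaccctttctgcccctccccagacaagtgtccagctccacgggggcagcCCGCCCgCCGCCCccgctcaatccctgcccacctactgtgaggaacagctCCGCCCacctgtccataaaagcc
Col8a2, chr4:126286544-126286793, plus strand: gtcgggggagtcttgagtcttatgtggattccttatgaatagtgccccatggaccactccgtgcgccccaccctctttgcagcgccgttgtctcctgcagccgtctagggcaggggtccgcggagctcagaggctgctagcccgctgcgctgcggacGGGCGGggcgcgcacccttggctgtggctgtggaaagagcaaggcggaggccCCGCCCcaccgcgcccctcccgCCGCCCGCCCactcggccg
Col3a1, chr1:45311288-45311537, plus strand: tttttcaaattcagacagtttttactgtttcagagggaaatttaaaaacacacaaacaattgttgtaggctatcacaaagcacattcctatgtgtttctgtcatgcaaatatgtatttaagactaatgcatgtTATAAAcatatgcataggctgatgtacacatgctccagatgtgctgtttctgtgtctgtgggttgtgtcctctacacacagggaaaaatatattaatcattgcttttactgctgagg
The 2 windows of type VIII collagen each hold 4 GC boxes and no TATA or CCAAT match, while the window of Col3a1 holds 1 TATA match and neither of the others. The windows not shown hold 2 GC boxes and 1 CCAAT match for Col25a1 and 1 GC box for Col6a2. Over all 38 collagen windows, 22 (57.89%) had a GC box, 13 (34.21%) CCAAT and 5 (13.16%) TATA, and the shares over 32817 windows of the same length were 32.72%, 33.83% and 12.37%. A match describes the letters of the window and is not evidence of binding.

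Among fibrillar genes, 8 of the 10 tested had a higher and 2 a lower fitted level in withdrawn mice, with a median log2 fold change of 1.01 and a range from -0.75 (Col5a1) to 4.88 (Col1a1). The median lay between 0.72 and 1.75 when single mice were left out, with 1.75 without naïve mouse 2, and over the 2 genes with at least 10 counts in every mouse it was -0.28. The highest values belonged to the chains of type I collagen, the main collagen of connective tissue fibrils, and to type III collagen, which is often found in the same fibrils. Col1a1 (ENSMUSG00000001506, chr11:94936224-94953042) had a median of 3.05 CPM in naïve mice, from 0 to 16.5 CPM. In withdrawn mice 1 to 5 it had 378, 3.02, 151, 225 and 70.0 CPM. All withdrawn mice except mouse 2 were thus above every naïve mouse, and mouse 2 was near the naïve median. The means were 5.58 ± 6.60 CPM (SD, n = 6) and 165 ± 145 CPM (SD, n = 5). This gave a log2 fold change of 4.88 (SE 1.13, adjusted p = 0.157 in edgeR and 0.0107 in DESeq2).

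Its partner chain Col1a2 (ENSMUSG00000029661, chr6:4504814-4541544) placed the withdrawn mice in the same order. Naïve mice had a median of 2.41 CPM (0 to 38.4), and withdrawn mice 1 to 5 had 690 CPM, 1.90, 294, 378 and 97.5 CPM. Here too only withdrawn mouse 2 overlapped with the naïve mice, and the log2 fold change was 4.71 (SE 1.33, adjusted p = 0.273 in edgeR and 0.0630 in DESeq2). Col3a1 (ENSMUSG00000026043, chr1:45311538-45349706), the only chain of type III collagen, was at 0 in 2 naïve mice, at 12.0 CPM in naïve mouse 3 and at most 0.524 CPM in the rest, and it had 33.9, 0.560, 52.4, 47.6 and 1.63 CPM in withdrawn mice 1 to 5. Withdrawn mice 1, 3 and 4 were above the highest naïve mouse, and mice 2 and 5 were below it (log2 fold change 3.66, SE 1.47, adjusted p = 0.581). It shares 141 bases of exon on the same strand with a predicted gene, so a part of its reads could have been left unassigned in the counting.

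The other 7 fibrillar genes tested had log2 fold changes from -0.75 to 2.43, each with an unadjusted p above 0.05. Type V chains regulate fibril diameter. Col5a1 had a median of 32.6 CPM in naïve mice (2.71 to 107.9) and 33.2, 3.36, 25.3, 47.3 and 25.7 CPM in withdrawn mice, with the groups overlapping fully, while Col5a2 had a median of 8.93 CPM (0.562 to 19.7) and 41.8, 1.79, 24.8, 16.4 and 8.985 CPM. Col5a2 lies tail to tail with Col3a1, 24.6 kb apart, and their log2 fold changes were 0.96 and 3.66. Col11a1, a minor fibrillar chain singled out after its values were seen, had 8.57, 0.448, 5.89, 20.2 and 5.24 CPM in withdrawn mice 1 to 5 against at most 4.01 CPM in naïve mice, again with only mouse 2 inside the naïve range. The log2 fold change of Col11a1 was 2.43 (SE 1.19) at an unadjusted p of 0.0606. The same 4 withdrawn mice had the high fibroblast, astrocyte and microglia marker sums.

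**Figure D3:**
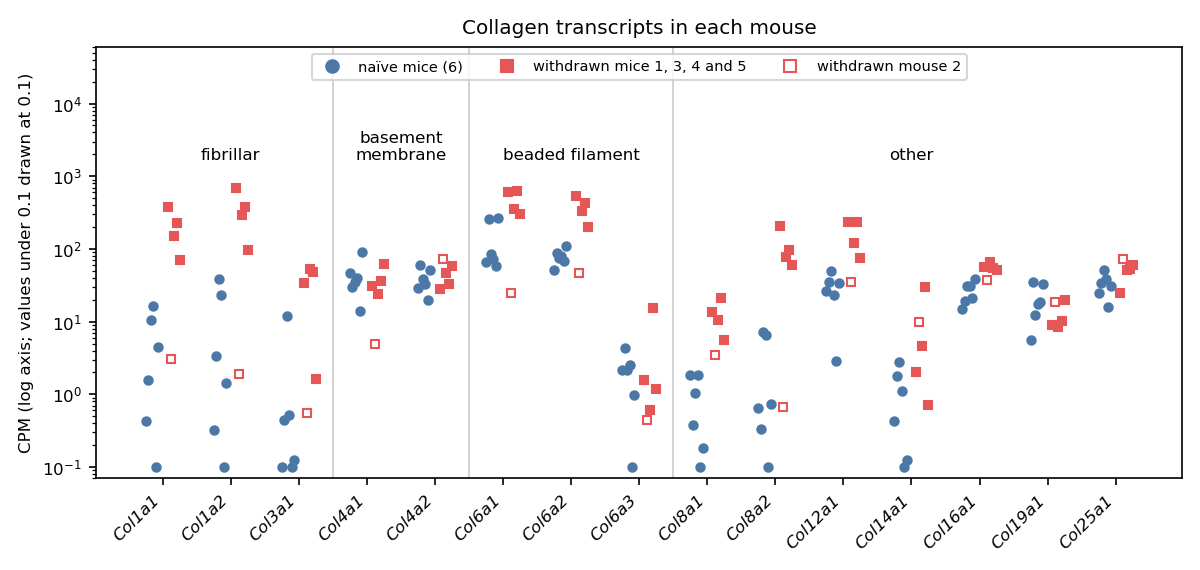
CPM (log axis, values under 0.1 drawn at 0.1) of the 15 collagen genes described singly, with 1 point for each of 6 naïve and 5 withdrawn mice and withdrawn mouse 2 drawn open. For Col1a1, Col1a2, Col8a2 and Col12a1 the 4 filled withdrawn points lie above all naïve points and the open point lies among them, whereas for Col4a1, Col4a2 and Col19a1 the groups overlap.

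Basement membrane genes had no member with an unadjusted p under 0.05. Their median log2 fold change was 1.10 over 5 genes, with 4 higher and 1 lower, and it lay between 0.35 and 1.30 when single mice were left out. Col4a1 (ENSMUSG00000031502, chr8:11198423-11312826) and Col4a2 (ENSMUSG00000031503, chr8:11312805-11449287) encode the chains of the common vascular trimer and lie head to head with an overlap of 22 bases. Col4a1 had a median of 37.5 CPM in naïve mice (14.1 to 89.7) and 30.8, 4.92, 24.3, 36.0 and 61.9 CPM in withdrawn mice 1 to 5. Col4a2 had a median of 36.1 CPM in naïve mice (19.98 to 60.8) and 27.9, 72.5, 46.3, 33.1 and 58.1 CPM in withdrawn mice. Neither separated the groups, and the log2 fold changes were -0.43 (SE 0.52, adjusted p = 0.923) and 0.29 (SE 0.32, adjusted p = 0.912). Withdrawn mouse 2 was the lowest of all mice for Col4a1 and the highest of all for Col4a2.

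The other chains of type IV collagen were scarcer and varied more. Col4a3 and Col4a4, which lie head to head 71 bases apart and form a trimer with the Col4a5 chain in some specialized basement membranes, had at most 2.21 and 0.988 CPM in naïve mice. Col4a3 had 3.53, 9.40, 0.654, 9.22 and 1.06 CPM in withdrawn mice 1 to 5, with mice 3 and 5 inside the naïve range. Its log2 fold change was 1.76 (SE 0.99) at an unadjusted p of 0.0966. Col4a4 (log2 fold change 1.10) and Col4a5 (1.67) stayed at or below 4.53 CPM in all mice. The class median rests on these 3 scarcer chains, and over the 2 genes with at least 10 counts in every mouse it was -0.031.

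All 5 beaded filament genes tested had a higher fitted level in withdrawn mice, and the log2 fold changes lay between 0.75 and 1.96, with a median of 1.15. Col6a1 and Col6a2 encode chains of type VI collagen and lie in the same direction on chromosome 10, 85.2 kb apart. They were also the most abundant collagen transcripts per kilobase of exon in both groups. Col6a1 (ENSMUSG00000001119, chr10:76708792-76726168) had a median of 78.03 CPM in naïve mice (57.8 to 263), and withdrawn mice 1 to 5 had 614, 24.6, 354, 632 and 298 CPM. Mice 1, 3, 4 and 5 were above every naïve mouse and mouse 2 was below every naïve mouse (log2 fold change 1.53, SE 0.63, adjusted p = 0.608). Col6a2 (ENSMUSG00000020241, chr10:76595762-76623630) had the smallest adjusted p of all collagen genes. Its naïve median was 77.8 CPM (52.1 to 109), and withdrawn mice 1 to 5 had 543, 46.6, 328, 424 and 199 CPM. Mouse 2 was again below all naïve mice and the others above them, and the means were 79.0 ± 19.0 CPM (SD, n = 6) and 308 ± 193 CPM (SD, n = 5). The log2 fold change was 1.96 (SE 0.43, adjusted p = 0.129 in edgeR and 0.00375 in DESeq2).

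The third classical chain of type VI collagen was far scarcer. Col6a3 (ENSMUSG00000048126, chr1:90765923-90843971) had a median of 2.15 CPM in naïve mice (0 to 4.28) and 1.58, 0.448, 0.607, 15.6 and 1.20 CPM in withdrawn mice 1 to 5. Withdrawn mouse 4 alone exceeded the naïve range and held 80.3% of the summed CPM of its group. The log2 fold change of 0.94 (SE 1.13, adjusted p = 0.923) was -1.06 without withdrawn mouse 4 and -1.004 without the 3 mice with conflicting labels. Col6a4, Col6a5 and Col6a6, which lie next to each other on chromosome 9 and encode longer chains that resemble Col6a3, had at most 6.28 CPM in any mouse. The 4 withdrawn mice with high Col6a1 and Col6a2 were those with the high fibroblast marker sums.

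Of the other collagens, 15 of 18 tested had a higher and 3 a lower fitted level in withdrawn mice, with a median log2 fold change of 0.80 and a range from -0.92 (Col28a1) to 5.10 (Col8a2). Type VIII collagen is a short-chain collagen that forms lattices, as in the membrane under the corneal endothelium. Col8a2 (ENSMUSG00000056174, chr4:126286793-126314330) had a median of 0.693 CPM in naïve mice (0 to 7.22) and 207 CPM, 0.672, 77.3, 96.0 and 60.2 CPM in withdrawn mice 1 to 5. Mouse 2 was at the level of the naïve mice and the other 4 were at least 60.2 CPM. Its log2 fold change of 5.10 was the highest of all collagen genes (SE 1.19, adjusted p = 0.157 in edgeR and 0.00775 in DESeq2).

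Col8a1 (ENSMUSG00000068196, chr16:57624258-57754737), the other chain of type VIII collagen, was the only collagen gene with every withdrawn mouse above every naïve mouse, a pattern found in 0.690% of all genes tested. For 0 collagen genes was every withdrawn mouse below every naïve mouse, against 0.257% of all genes tested. Naïve mice had a median of 0.708 CPM (0 to 1.86), and withdrawn mice 1 to 5 had 13.8, 3.47, 10.5, 20.9 and 5.52 CPM. Withdrawn mouse 2 was the lowest of its group here as well. The means were 0.882 ± 0.823 CPM (SD, n = 6) and 10.8 ± 6.94 CPM (SD, n = 5). This gave a log2 fold change of 3.62 (SE 0.94, adjusted p = 0.234 in edgeR and 0.000869 in DESeq2). At least 4 of the 5 withdrawn mice were above every naïve mouse for 9 collagen genes, Col1a1, Col1a2, Col6a1, Col6a2, Col8a1, Col8a2, Col11a1, Col12a1 and Col16a1, and for 4.60% of all genes tested.

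Types XII, XIV and XVI are fibril-associated collagens, which sit on the surface of fibrils rather than forming them. Col12a1 (ENSMUSG00000032332, chr9:79598991-79718831) had a median of 29.8 CPM in naïve mice (2.84 to 50.2) and 238, 35.0, 123, 233 and 76.3 CPM in withdrawn mice 1 to 5. Only mouse 2 was within the naïve range (log2 fold change 2.31, SE 0.58, adjusted p = 0.202 in edgeR and 0.0104 in DESeq2). Col16a1 (ENSMUSG00000040690, chr4:130047840-130099283) had a smaller difference with less spread, with a median of 26.0 CPM in naïve mice (14.7 to 38.7) and 55.7, 37.0, 66.7, 55.3 and 51.1 CPM in withdrawn mice. Mouse 2 lay just under the highest naïve mouse, and the log2 fold change was 1.03 (SE 0.27, adjusted p = 0.234 in edgeR and 0.0143 in DESeq2). Col14a1 (ENSMUSG00000022371, chr15:55307750-55520803) ordered the mice differently, at most 2.81 CPM in naïve mice and 2.02, 9.96, 4.67, 29.9 and 0.707 CPM in withdrawn mice 1 to 5. Mouse 2 was the second highest here and mice 1 and 5 were within the naïve range (log2 fold change 3.16, SE 1.15, adjusted p = 0.484). For Col8a2, Col12a1 and Col16a1 the 4 mice above the naïve range were again those with the high fibroblast marker sums.

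The collagens known from neurons were expressed at moderate levels in both groups. Col25a1 (ENSMUSG00000058897, chr3:130131501-130599877), a transmembrane collagen of neurons, had a median of 32.5 CPM in naïve mice (15.9 to 51.3). Withdrawn mice 1 to 5 had 25.0, 73.3, 50.6, 52.7 and 60.6 CPM, with mouse 2 the highest and mice 1 and 3 inside the naïve range (log2 fold change 0.68, SE 0.32, adjusted p = 0.690). Col19a1 (ENSMUSG00000026141, chr1:24261890-24587472), which in the brain is made by subsets of neurons, had a median of 18.0 CPM in naïve mice (5.58 to 35.2) and 9.00, 18.7, 8.50, 10.3 and 19.6 CPM in withdrawn mice. The groups overlapped for both genes, and the log2 fold change of Col19a1 was -0.63 (SE 0.47, adjusted p = 0.859). The remaining 11 genes of this class that were tested had log2 fold changes between -0.92 and 1.35 and no unadjusted p under 0.05, among them Col18a1 (0.35), whose product is part of vascular basement membranes, and Col9a2 (-0.53), a chain of a cartilage collagen.

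Levels of different genes were compared per kilobase of annotated exon (RPKM, CPM divided by exon length in kilobases). Ranks and class sums depend on this choice of length. The annotated exons of Col1a2, for example, span 12426 bases and its longest coding transcript 5348. Per length, naïve mice had most of Col6a1 (30.5 ± 22.6 RPKM, SD, n = 6), followed by Col6a2 (9.49 ± 2.28 RPKM), Col4a2 (5.89 ± 2.26 RPKM) and Col4a1 (5.72 ± 3.42 RPKM), the last 2 within each other's spread. In withdrawn mice Col6a1 (87.8 ± 57.3 RPKM, SD, n = 5) and Col6a2 (37.0 ± 23.2 RPKM) were again first, followed by Col1a1 (25.2 ± 22.1 RPKM), Col1a2 (23.5 ± 21.6 RPKM) and Col8a2 (19.7 ± 16.8 RPKM), which do not differ beyond their spread. By mean RPKM, Col1a1 was at rank 16 of the 44 genes in naïve and rank 3 in withdrawn mice, and Col8a2 at ranks 20 and 5, whereas Col4a2 was at ranks 3 and 8.

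Summed RPKM per class described each mouse as a whole. Fibrillar collagens summed to 10.5 ± 4.81 RPKM in naïve mice (SD, n = 6) and to 128, 6.60, 58.7, 80.9 and 25.3 RPKM in withdrawn mice 1 to 5. Beaded filament collagens summed to 40.7 ± 24.7 RPKM in naïve mice and to 206, 12.3, 120.4, 198 and 92.7 RPKM in withdrawn mice. For both classes withdrawn mice 1, 3, 4 and 5 were above all naïve mice, and mouse 2 was within the naïve range for fibrillar and below it for beaded filament collagens. Basement membrane collagens summed to 11.9 ± 4.91 RPKM in naïve and 12.2 ± 3.08 RPKM in withdrawn mice (SD, n = 5), and all withdrawn sums lay inside the naïve range. The other collagens summed to 22.2 ± 6.35 RPKM in naïve mice and to 90.2, 29.8, 49.9, 75.4 and 41.4 RPKM in withdrawn mice 1 to 5, all above the highest naïve sum of 27.9 RPKM.

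As a share of the summed RPKM of all collagens, basement membrane genes made up 10.6% to 19.97% in naïve mice. In withdrawn mice 1 to 5 the share was 2.09%, 20.6%, 4.59%, 3.07% and 9.77%, so that 4 mice were below all naïve mice and mouse 2 above them. Fibrillar genes made up 10.8% to 13.8% in naïve mice and 29.6%, 10.8%, 24.5%, 22.1% and 14.3% in withdrawn mice, with mouse 2 just under the lowest naïve share and the other 4 above the highest. Beaded filament genes had the highest share in each naïve mouse (38.0% to 54.5%) and in each withdrawn mouse except mouse 2 (20.1%, against 47.5% to 54.1%). In mouse 2 the other collagens had the highest share, 48.6%.

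**Figure D4:**
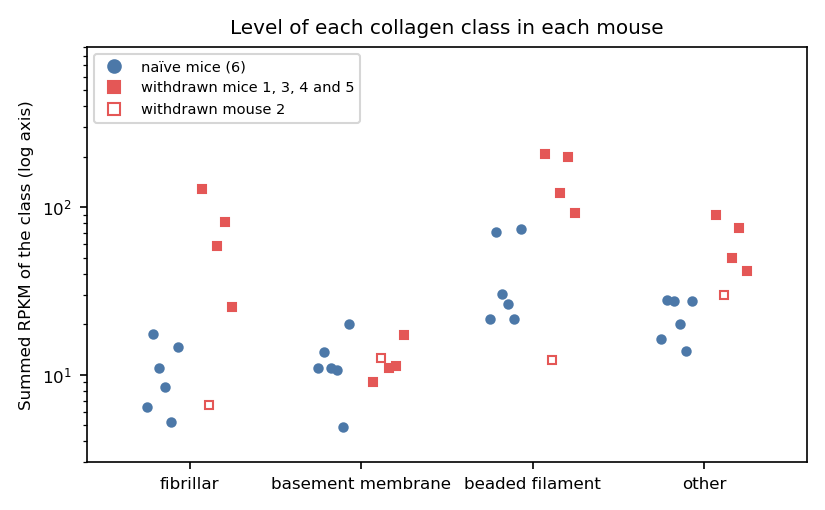
Summed RPKM (log axis) of the collagen genes of each class in each mouse, with withdrawn mouse 2 drawn open. Fibrillar and beaded filament sums of withdrawn mice 1, 3, 4 and 5 lie above those of all naïve mice, and basement membrane sums of the groups overlap, with means of 11.9 and 12.2 RPKM.

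Chains of the same collagen type were compared as ratios of their levels per length in each mouse with more than 3 counts of both. The median ratio of Col1a1 to Col1a2 was 1.13 over 9 mice, from 0.513 to 6.01, and the 4 withdrawn mice with high type I collagen lay between 0.973 and 1.36. With the length of the longest coding transcript in place of all annotated exons, a choice made after seeing the data, the median was 0.536, because the annotated exons of Col1a2 span 12426 bases and its longest coding transcript 5348. The median ratio of Col6a1 to Col6a2 was 2.15 over 11 mice (1.01 to 5.55) and 1.28 with the longest coding transcripts. Col6a3 had a median ratio of 0.0132 to Col6a2 over 10 mice and at most 0.0336, and the values with the longest coding transcripts were 0.00873 and 0.0222. Col8a1 to Col8a2 had a median of 0.125 over 9 mice, with 2.96 in withdrawn mouse 2 and 0.0381 to 0.125 in the other withdrawn mice. Col4a1 to Col4a2 had a median of 0.945 over 11 mice, with 0.0602 in withdrawn mouse 2 and 0.443 to 1.55 in the other 10 mice.

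Genes that make, process or bind collagen were counted by role. Of 15 genes that modify collagen chains, all were tested, 12 were higher and 3 lower in withdrawn mice, and 4 had an unadjusted p under 0.05, all higher, with a median log2 fold change of 0.61 over the list. P3h4, which encodes a subunit of the lysyl hydroxylation complex, had 4.56 to 14.1 CPM in naïve and 27.4, 12.8, 27.1, 33.1 and 20.2 CPM in withdrawn mice 1 to 5 (log2 fold change 1.51, SE 0.41, adjusted p = 0.256). Mouse 2 was inside the naïve range and the others above it. The other 3 were the hydroxylase genes P4hb (0.54), P3h1 (1.18) and Plod1 (2.30), values being log2 fold changes.

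For folding and export, 10 of 12 genes were higher and 4 had an unadjusted p under 0.05, with a median log2 fold change of 0.68. Serpinh1, the gene for the collagen chaperone HSP47, had 0 to 12.2 CPM in naïve mice and 110.4, 0.448, 92.4, 123 and 44.1 CPM in withdrawn mice 1 to 5. Mouse 2 was within the naïve range and the other 4 at least 44.1 CPM (log2 fold change 3.75, SE 1.04, adjusted p = 0.265, and 0.0268 without withdrawn mouse 2). The other 3 were Creb3l2 (2.71), a transcription factor of the secretory pathway, the foldase gene Fkbp10 (4.01) and the vesicle coat gene Sec24d (0.71).

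For trimming and crosslinking, 10 of 11 genes tested were higher and 4 had an unadjusted p under 0.05, with a median log2 fold change of 0.72. Loxl1, a lysyl oxidase gene, had the smallest adjusted p of these 4 lists (0.0729), with at most 4 counts in any naïve mouse and 9.72, 1.68, 7.38, 5.16 and 7.29 CPM in withdrawn mice 1 to 5. Adamts2, which removes the amino-terminal propeptide of fibrillar procollagen, had 0.474 to 6.79 CPM in naïve mice and 223, 0, 78.5, 109 and 39.3 CPM in withdrawn mice (log2 fold change 4.67, SE 1.05, adjusted p = 0.134). The other 2 were Pcolce (4.45), an enhancer of procollagen C-proteinase, and Bmp1 (0.66), that proteinase itself. Of 10 receptor genes tested, 8 were higher and 4 had an unadjusted p under 0.05, with a median log2 fold change of 1.67. Ddr2, a receptor tyrosine kinase for fibrillar collagen, had 0 to 4.01 CPM in naïve mice and 87.4, 2.57, 52.0, 76.8 and 33.1 CPM in withdrawn mice (log2 fold change 4.18, SE 0.87, adjusted p = 0.105). The others were the integrin genes Itgb1 (1.75) and Itga11 (2.27) and the collagen uptake receptor gene Mrc2 (4.08). None of the genes of these lists met the thresholds in edgeR, where 16 of 48 tested had an unadjusted p under 0.05, against 7.22% of all genes. DESeq2 called 1, 3, 3 and 3 genes of the lists in the order given, all of them higher, against 1.57% of all genes. For Serpinh1, Adamts2 and Ddr2, as for Col1a1, the high values belonged to the 4 withdrawn mice with high fibroblast marker sums.

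**Figure D5:**
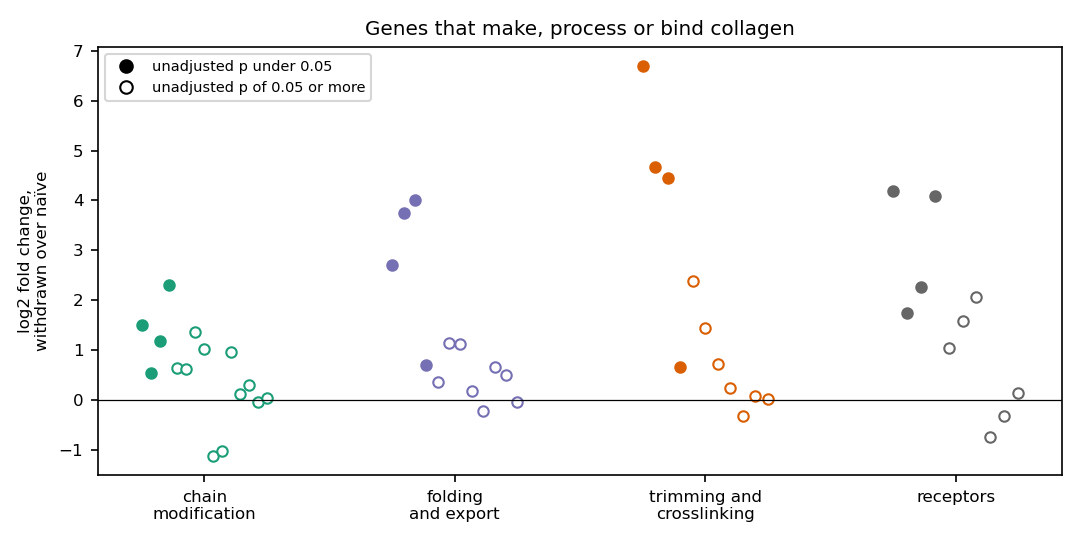
Log2 fold change (withdrawn over naïve, vertical axis) of each tested gene in the lists of chain modification, folding and export, trimming and crosslinking, and receptors, 1 point per gene, filled for an unadjusted p under 0.05. All filled points lie above 0, up to 6.69 for Loxl1, fitted against naïve mice with at most 4 counts, and the open points lie between -1.11 and 2.39.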

How the data were processed

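Fluorescence-activated cell sorting and RNA sequencing were done on single mice, 6 naïve and 5 withdrawn, grouped by the title and treatment of each sample. The authors trimmed reads with cutadapt, aligned them to GRCm38 (Ensembl annotation) with STAR and used HTSeq to count them, and what they deposited are unnormalized integer counts for each Ensembl gene in each mouse. For differential expression the authors used DESeq2, with the thresholds applied here. Whether counting used strand is not given in the sources used here. Symbols, coordinates and exon lengths come from GENCODE M21, another release on the same assembly. Reads assigned to no single gene (18.9% to 58.0% of the counted reads) were left out of library sizes and tests. Among all 55 pairs of libraries the lowest chi-square per degree of freedom of the gene counts was 25.6, so none was treated as a duplicate.

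Counts were compared with edgeR 4.0.16 in R 4.3.3 (filterByExpr with minimum count 10 and minimum total count 15, TMM, quasi-likelihood test, Benjamini-Hochberg adjustment over all 17093 genes tested). Calls needed an adjusted p no higher than 0.05 and a log2 fold change past 0.6 in either direction. The SE is the log2 fold change divided by the square root of F. CPM use TMM-normalized library sizes, RPKM divide CPM by exon length, and a prior count of 2 was added for log2 CPM. Alternatives were DESeq2 1.42.0, its size factors, other count filters, a replicate block, and mice left out. The scripts were tested on simulated data. P-values set the group difference against the spread between mice within the groups. With 1 library per mouse, that spread holds differences between animals and between library preparations, which cannot be told apart.

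The members, the marker lists and the lists of collagen pathway genes were chosen with earlier results of these data known. Collagen genes were named singly if they had an unadjusted p under 0.05, were called by DESeq2, did not overlap between groups, were among the 2 most abundant of their class, or were chains of the main trimers or known from neurons. From each pathway list at most 4 genes with the smallest p were named. Of the marker lists, genes named were chosen after their values were seen.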

Additional observations from a re-analysis of the deposited data

Results flagged for a closer look

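In 38 sets of values (log2 CPM of the 15 genes described singly and log2 summed RPKM of the 4 classes, each within the naïve and within the withdrawn mice), 5 held a mouse that stood apart from its group by Dixon's criterion at 95%. Chance alone gives about 1 in 20, or 1.9 sets here. The sets are not independent, since the class sums include genes described singly, such as Col6a1 in the beaded filament sum. Many of the 15 genes were also named for their p in these data. The 2 counts therefore do not test for an excess. Withdrawn mouse 2 was far below its group in 3 of the 5 flagged sets, with a log2 CPM of 4.63 for Col6a1 against 8.22 to 9.31 in the other withdrawn mice, a log2 CPM of -0.29 for Col8a2 against 5.92 to 7.70, and a log2 summed RPKM of 3.62 for the beaded filament genes against 6.53 to 7.69. This mouse also had the lowest sum of fibroblast markers among withdrawn mice (57.1 CPM), and 39.6% of its counted reads lay outside annotated exons. Naïve mouse 3 had a log2 CPM of 3.602 for Col3a1, against -2.80 to -0.58 in the other naïve mice. Naïve mouse 5, the library with the fewest genes detected, had a log2 CPM of 1.58 for Col12a1, against 4.54 to 5.65.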

How the results depend on the processing

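The count of collagen genes called was 0 in the reported fit and with DESeq2 size factors. It was 6 with DESeq2's Wald test, 5 without a filter on low counts (of 137 genes called in all) and 1 with at least 10 counts in every mouse (of 30), and it ranged from 0 to 4 when 1 mouse was left out, with 4 only without withdrawn mouse 2. The count with an unadjusted p under 0.05 was 11 as reported (7.22% of all genes) and 6 without the 3 mice with conflicting labels (6.27%). Over the fits that left out 1 mouse it was 7 (without withdrawn mouse 4, 5.08% of all genes) to 11. With at least 10 counts in every mouse it was 5, with 2 fibrillar, 2 basement membrane, 2 beaded filament and 6 other genes tested. The share of all genes was not counted for the other fits. With at least 10 counts in every mouse, which leaves 2 genes in each of these classes, the median log2 fold change was -0.28 for fibrillar and -0.031 for basement membrane genes. Over the fits that left out 1 mouse, the basement membrane median lay between 0.35 and 1.30 and the log2 fold change of Col6a3 between -1.06 and 1.30, and without the 3 mice with conflicting labels Col6a3 was at -1.004. The other 14 genes described singly kept their direction in every fit that tested them. The fit without the 3 mice with conflicting labels is a weak check of this, since it kept only withdrawn mice 1 and 2. It left out 3 of the 4 withdrawn mice that were above the naïve range for Col1a1, and mouse 2 was within that range.

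Replicate numbers do not pair the mice, which are different animals, and deviations of same-numbered mice correlated at -0.20 to 0.18. With the number as a replicate block, 0 collagen genes were called, 9 had an unadjusted p under 0.05 and the fibrillar median was 2.22. The median log2 fold change over all genes was 0.02 with TMM and 0.05 with DESeq2 size factors. Depth limits the scarce members, since 3 counts amount to up to 0.408 CPM and 27 of the 44 genes had no count in naïve mouse 5.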
